A study of Mus musculus with 6 samples.

Results

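The genes described here are those of 8 cytokine receptor chains of CD8+ T cells, Il7r, Il15ra, Il4ra, Il21r, Il6ra, Il6st, Il27ra and Il10ra. They were chosen by symbol among the 25638 genes of the table, and all 8 were found. RNA was sequenced from OT-I cells, mouse CD8+ T cells whose transgenic receptor recognises the ovalbumin peptide OVA257-264, in 3 groups of 2 libraries. In the TAN group the cells had been cultured for 48 hours with TANs, sorted as CD11b+Ly6G+Ly6Clow, in the TAMo group with TAMos, sorted as CD11b+Ly6G-Ly6Chigh, and in the vehicle group with vehicle. The peptide was present in all groups, the genotype of all OT-I cells is given as WT, and both kinds of co-cultured cells had been sorted from the spleens of mice bearing LLC tumours. The labels do not spell out these abbreviations. The activated T cells were purified from the culture before their RNA was isolated. Nothing in the labels tells if replicates are separate cultures or animals, so p-values measure the spread between these libraries, which may be technical.

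These receptors carry no kinase of their own. Each ligand brings together a chain that binds it specifically and a chain that it shares with other ligands, and Janus kinases (JAKs) bound to the chains then phosphorylate STAT transcription factors. The chains of interleukins 7, 15, 4 and 21 pair with the common gamma chain, encoded by Il2rg, and interleukin-15 also uses the beta chain encoded by Il2rb. The chains of interleukins 6 and 27 pair with gp130, encoded by Il6st, and that of interleukin-10 pairs with the chain encoded by Il10rb. In CD8+ T cells, interleukins 7 and 15 are known for survival and homeostasis, and interleukin-21 for sustaining effector responses.

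Co-culture with TAMos was accompanied by far more transcript of 3 receptor chains. Il21r was 8.97-fold, Il4ra 3.93-fold and Il6st 2.50-fold as high as with vehicle, and Il7r was 1.62-fold as high. Co-culture with TANs gave smaller differences: Il7r rose 1.19-fold, and Il15ra and Il4ra fell to 0.709 and 0.822 of their level with vehicle. Il15ra fell with TAMos too, to 0.667 of that level. Il6ra stayed near 1 FPKM in every library. FPKM scales the reads of a gene to its length and to all counted reads of the library, and a fold is the ratio of mean FPKM of the groups.

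Of the 8 receptor genes, 3 passed the test for TAN against vehicle (1 higher, 2 lower), against 20.3% of the 10727 genes tested (9.37% higher, 11.0% lower). For TAMo against vehicle, 7 passed (5 higher, 2 lower), and 86.5% of all genes did (45.7% higher, 40.7% lower), so that this count is close to the background. For TAN against TAMo, 5 passed and all of these were lower with TAN, against 86.6% of all genes (40.6% higher, 46.0% lower). By size, 3 of the 8 passed with TAMo and were higher by at least 1 on the log2 scale, against 14.9% of all genes. The test was limma's moderated test on log2(FPKM + 1) over all 6 libraries. It was two-sided, and the calling threshold was a p of 0.05 after Benjamini-Hochberg adjustment over all genes tested. TAN and TAMo were both set against the same 2 vehicle libraries. The median log2 change of the 8 genes was -0.08 for TAN, 0.42 for TAMo and -0.33 for TAN against TAMo, beside medians of -0.0050, 0.057 and -0.065 over all genes tested. Without TAMo replicate 1, whose depth is uncertain, 7 receptor genes passed for TAMo against vehicle and 6 for TAN against TAMo. All 8 genes met the filter of at least 1 FPKM in at least 2 libraries.

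**Figure D1:**
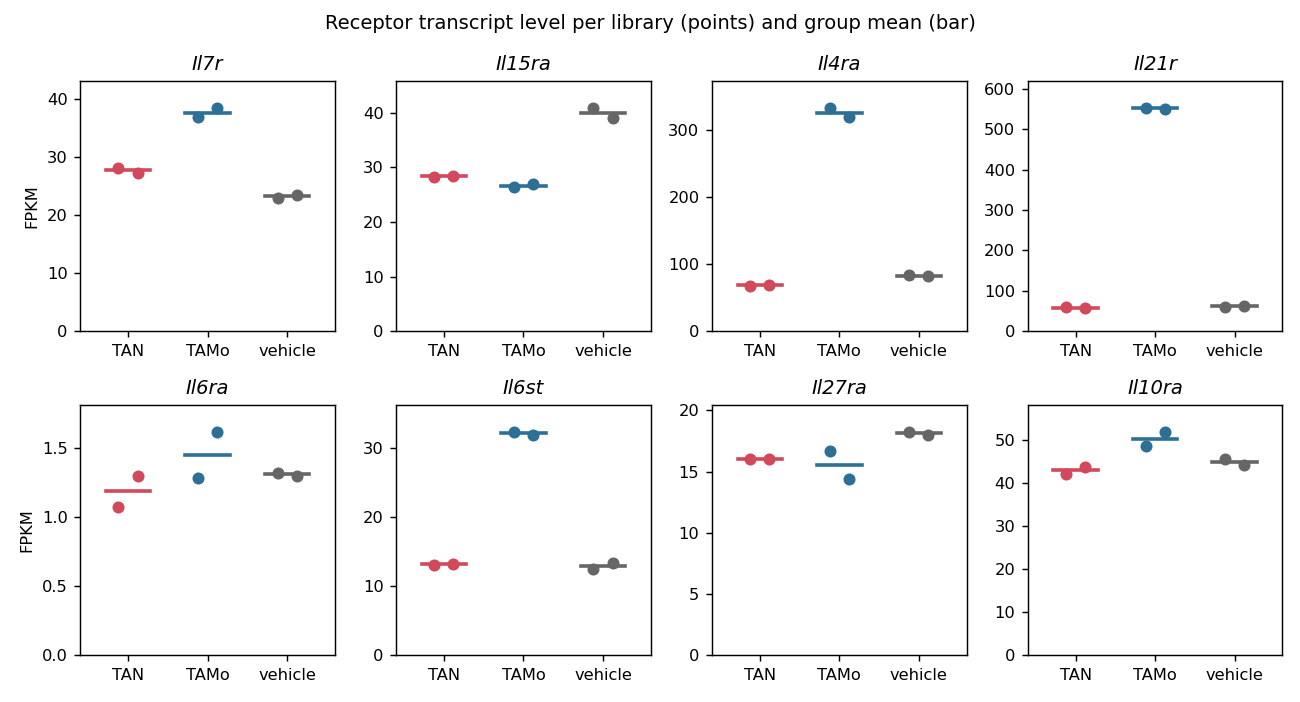
FPKM (vertical axes, from 0) of the 8 receptor genes in each library, with points for the 2 libraries of the TAN, TAMo and vehicle groups and a bar for the group mean. Il4ra, Il21r and Il6st stand far higher in both TAMo libraries than in the other 4, Il15ra is highest in the vehicle libraries, and Il6ra overlaps between the groups.

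The genes of the largest changes, Il4ra and Il21r, are neighbours on chromosome 7 of GRCm38, both on the plus strand. Il4ra (ENSMUSG00000030748) lies at 125552120 to 125579474 and Il21r (ENSMUSG00000030745) at 125603429 to 125633570, with a gap of 23.95 kb that holds no annotated gene. Il6st (ENSMUSG00000021756), the next largest, lies on the plus strand of chromosome 13 at 112464070 to 112510086. The sequences before their starts are shown because these genes moved together with TAMo, and the forkhead motif TGTTTAC is in capitals. They are RefSeq promoter windows on GRCm38.p6, plus strand, 5′ to 3′, shown only up to the first annotated exon, at chr7:125603179-125603428, chr7:125552021-125552119 and chr13:112463820-112464069.
Il21r: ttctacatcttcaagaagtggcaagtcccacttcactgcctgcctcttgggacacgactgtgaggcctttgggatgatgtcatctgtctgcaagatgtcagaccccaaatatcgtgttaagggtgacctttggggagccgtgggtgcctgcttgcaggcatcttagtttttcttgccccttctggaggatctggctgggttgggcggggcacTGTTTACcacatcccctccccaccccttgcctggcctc
Il4ra: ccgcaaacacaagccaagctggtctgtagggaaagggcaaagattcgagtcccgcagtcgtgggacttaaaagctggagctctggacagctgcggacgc
Il6st: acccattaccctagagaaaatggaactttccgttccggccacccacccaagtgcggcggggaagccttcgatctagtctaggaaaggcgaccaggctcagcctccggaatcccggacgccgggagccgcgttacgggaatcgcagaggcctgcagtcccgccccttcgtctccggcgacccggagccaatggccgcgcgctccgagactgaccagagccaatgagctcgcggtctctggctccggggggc
The only match among the 3 is that forkhead motif, at -38 to -32 from the Il21r start (the start is position 0). It is the motif bound by FOXO factors, and 3.65% of all 32851 promoter windows of 300 bases hold it on either strand. The other motifs searched were TTCNNNGAA (STAT), TGANTCA (AP-1), the interferon-stimulated response element and the NF-kappaB motif, on both strands. They occur in 8.30%, 7.81%, 3.44% and 0.411% of all windows. Of the 6 receptor genes with a RefSeq window, Il7r held the STAT motif at -142 to -134, and Il6ra held none. Il15ra held the AP-1 motif at -30 to -24 of its second start. The starts used for these matches, 9529876 for Il7r and 11705712 for Il15ra, lie inside the annotated genes, and so do both matches. Il10ra and Il27ra were not among the 6.

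Il21r encodes the chain that binds interleukin-21. It had 59.2 and 56.8 FPKM in the TAN libraries, 553 and 551 FPKM in the TAMo libraries, and 59.9 and 63.2 FPKM in the vehicle libraries. Both TAMo libraries were far above the other 4, and the TAN libraries lay just under the vehicle libraries. Its log2 change was 3.15 ± 0.0356 for TAMo against vehicle (SE, limma adjusted p = 7.05e-10), and only 80 of the 10727 genes tested had a higher one. In TAN against TAMo it was -3.23 ± 0.0356 (adjusted p = 6.71e-10). For TAN against vehicle the value was -0.08, with a 95% interval of -0.17 to -0.00044, and did not pass (adjusted p = 0.142).

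Il4ra encodes the chain that binds interleukin-4 and is also part of a receptor for interleukin-13. It had 67.8 and 68.4 FPKM with TAN, 332 and 318 FPKM with TAMo, and 84.0 and 81.6 FPKM with vehicle. The groups did not overlap, and here the co-cultures went in opposite directions from vehicle. The log2 change was -0.28 ± 0.0317 for TAN against vehicle (adjusted p = 0.00211) and 1.96 ± 0.0317 for TAMo against vehicle (adjusted p = 2.53e-09). The difference between the co-cultures, TAN against TAMo, was -2.24 ± 0.0317 (adjusted p = 1.54e-09). An annotated antisense gene, Gm44876, shares 571 exonic bases with Il4ra, and reads of both cannot be told apart if counting ignored strand.

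Il7r encodes the alpha chain of the interleukin-7 receptor (chromosome 15, 9505788 to 9530176, minus strand), a chain that resting and memory T cells are known to carry and that strong activation is known to lower. The gene had 28.2 and 27.4 FPKM with TAN, 36.9 and 38.55 FPKM with TAMo, and 23.05 and 23.5 FPKM with vehicle. All 3 groups were apart, with TAN between vehicle and TAMo. It rose with TAN by 0.25 ± 0.0395 on the log2 scale (adjusted p = 0.00721) and with TAMo by 0.68 ± 0.0395 (adjusted p = 1.71e-06), and was lower with TAN than with TAMo (-0.43 ± 0.0395, adjusted p = 2.44e-05). The rise with TAN missed the threshold without TAN replicate 1 (adjusted p = 0.0548) or without vehicle replicate 1 (adjusted p = 0.0548).

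Il15ra encodes the high-affinity interleukin-15 binding chain (chromosome 2, 11705290 to 11734317, plus strand), which can also present interleukin-15 to neighbouring cells. It had 28.3 and 28.4 FPKM with TAN, 26.4 and 27.0 FPKM with TAMo, and 40.9 and 39.1 FPKM with vehicle. Both co-cultures were under both vehicle libraries, and they lay close to each other. The log2 change was -0.48 ± 0.0383 for TAN (adjusted p = 0.000635) and -0.57 ± 0.0383 for TAMo (adjusted p = 3.91e-06). Of all genes tested, 133 fell further with TAN. The direct difference, TAN against TAMo, was 0.086 with a 95% interval of -0.0047 to 0.18 and did not pass (adjusted p = 0.0685). It depended on the scaling of the libraries: it passed at 0.17 with median-of-ratios size factors (adjusted p = 0.00361) and at 0.12 with quantile normalisation (adjusted p = 0.0184), and was -0.0070 when mitochondrial transcripts were left out and the sums made equal.

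**Figure D2:**
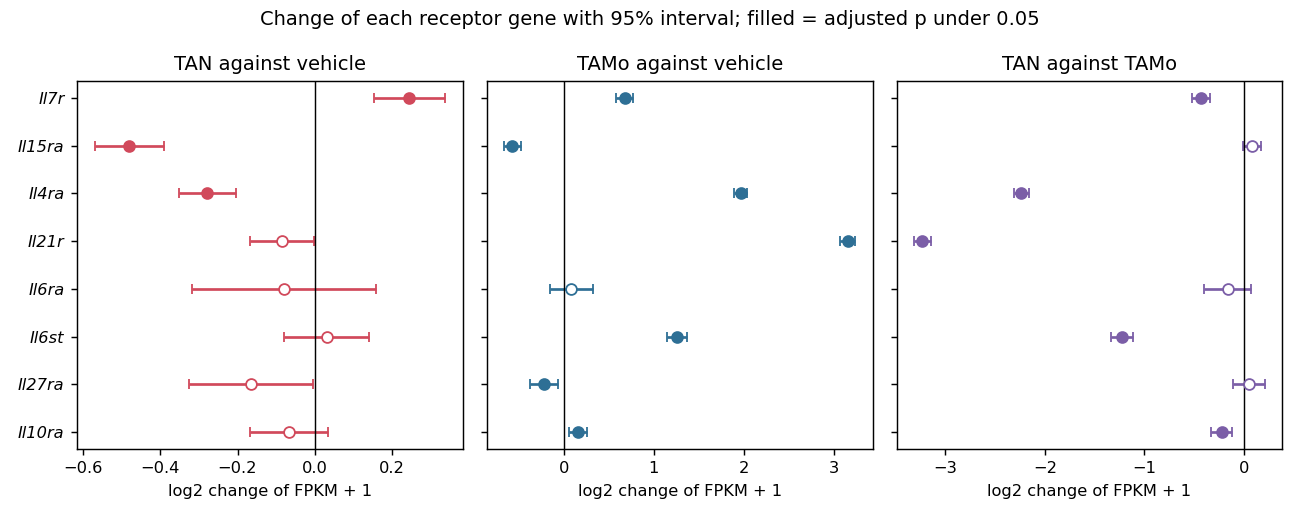
Log2 change of FPKM + 1 (horizontal axes, which differ between the panels) of each receptor gene in the 3 comparisons, with its 95% interval from limma and filled points for an adjusted p under 0.05. Il21r, Il4ra and Il6st lie at 3.15, 1.96 and 1.26 for TAMo against vehicle, whereas the TAN values span -0.48 to 0.25.

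Il6st encodes gp130, the signalling chain shared by the interleukin-6 family. It had 13.1 and 13.25 FPKM with TAN, 32.4 and 31.9 FPKM with TAMo, and 12.5 and 13.3 FPKM with vehicle. The TAN and vehicle libraries overlapped, and both TAMo libraries were far above them. The log2 change was 1.26 ± 0.0469 for TAMo against vehicle (adjusted p = 1.40e-07) and -1.23 ± 0.0469 for TAN against TAMo (adjusted p = 1.64e-07). For TAN against vehicle it was 0.031, with a 95% interval of -0.079 to 0.14, and did not pass (adjusted p = 0.686).

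Il6ra encodes the chain that binds interleukin-6 (chromosome 3, 89864059 to 89913196, minus strand). It was the lowest of the 8 in every group, with 1.075 and 1.297 FPKM with TAN, 1.28 and 1.62 FPKM with TAMo, and 1.32 and 1.30 FPKM with vehicle. The groups overlapped in all 3 comparisons, and none passed, with adjusted p of 0.628 for TAN and 0.463 for TAMo against vehicle and 0.166 for TAN against TAMo. The 95% intervals ran from -0.32 to 0.16 for TAN and from -0.16 to 0.32 for TAMo, on a scale that understates changes of genes this low. The annotated antisense gene Gm42809 shares 242 exonic bases with it.

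Il27ra encodes the specific chain of the interleukin-27 receptor (chromosome 8, 84030294 to 84042589, minus strand). It had 16.06 FPKM in both TAN libraries, 16.65 and 14.35 FPKM with TAMo, and 18.3 and 18.0 FPKM with vehicle. Every co-culture library lay under both vehicle libraries, the TAN values lay within the TAMo range, and the 2 TAMo libraries differed from each other by more than TAN did from vehicle. The log2 change was -0.22 ± 0.0679 for TAMo against vehicle (adjusted p = 0.0181), a call that was lost without TAMo replicate 2, vehicle replicate 1 or vehicle replicate 2 (adjusted p = 0.0829, 0.0778 and 0.0591) and also with no filter on low values (adjusted p = 0.0517) or with mitochondrial transcripts left out of the scaling (adjusted p = 0.123). For TAN against vehicle it was -0.17 and did not pass (adjusted p = 0.133), whereas without TAMo replicate 1 or TAMo replicate 2, which only lend their spread to this comparison, the same value passed (adjusted p = 0.0415 and 0.0399). TAN against TAMo did not pass at 0.052 (adjusted p = 0.49), but passed at 0.15 without TAMo replicate 1 (adjusted p = 0.0352).

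Il10ra encodes the interleukin-10 binding chain (chromosome 9, 45253837 to 45269149, minus strand), through which this regulatory cytokine acts on lymphocytes and myeloid cells. It had 42.0 and 43.7 FPKM with TAN, 48.55 and 51.9 FPKM with TAMo, and 45.6 and 44.2 FPKM with vehicle. The 3 groups did not overlap, but they lay within a narrow range. The gene passed as higher with TAMo than with vehicle, at 0.16 ± 0.043 (adjusted p = 0.00973), and lost this call with median-of-ratios size factors (adjusted p = 0.14) or without vehicle replicate 2 (adjusted p = 0.0617). TAN against TAMo passed at -0.22 ± 0.043 (adjusted p = 0.00169), and TAN against vehicle did not, at -0.066 (adjusted p = 0.328).

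The order of the 8 genes by mean FPKM was the same with TAN and with vehicle: Il4ra, Il21r, Il10ra, Il15ra, Il7r, Il27ra, Il6st and Il6ra. With TAMo it was Il21r, Il4ra, Il10ra, Il7r, Il6st, Il15ra, Il27ra and Il6ra. No neighbours in these orders had overlapping library values, although Il15ra and Il7r came within 1 FPKM of each other with TAN, at means of 28.35 and 27.8 FPKM. Summed over the 8 genes, the receptors reached 256 and 255 FPKM with TAN, 1048 and 1035 FPKM with TAMo, and 285.5 and 284 FPKM with vehicle. Il21r alone made up 52.8% and 53.3% of that sum with TAMo, against 20.98% and 22.25% with vehicle. With Il21r and Il4ra left out, the sums were 129 and 130.1 FPKM with TAN, 162 and 165 FPKM with TAMo, and 142 and 139 FPKM with vehicle, so that most of the added receptor transcript belonged to these 2 genes.

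**Figure D3:**
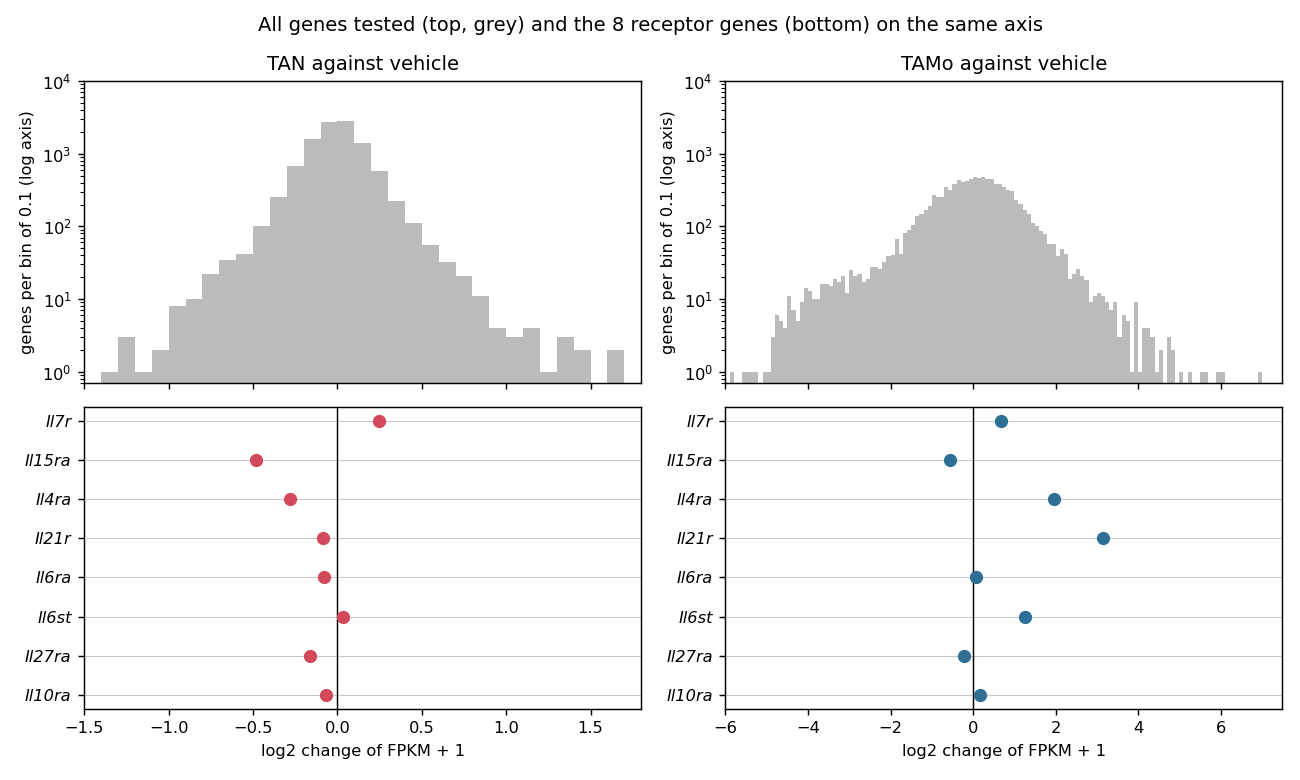
Distribution of the log2 change of FPKM + 1 over all 10727 genes tested (top, number of genes per bin of 0.1 on a log axis) and the 8 receptor genes on the same horizontal axis (bottom), for TAN and for TAMo against vehicle, whose axes differ. With TAMo, Il21r lies far in the upper tail, with 80 genes above it, Il4ra has 382 above it, and Il10ra and Il6ra lie near the centre.

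Receptor chains work in pairs, so each specific chain was set against its shared chain within a library, a ratio of FPKM that scaling does not touch. Il2rg, the common gamma chain gene, had 53.4 and 54.0 FPKM with TAN, 266 and 252 FPKM with TAMo, and 61.2 and 64.3 FPKM with vehicle. It was lower with TAN than with vehicle (-0.22 ± 0.0381, adjusted p = 0.00946) and higher with TAMo (2.03 ± 0.0381, adjusted p = 4.90e-09). The call with TAN was lost without TAN replicate 1, TAN replicate 2 or vehicle replicate 2 (adjusted p = 0.0654, 0.0587 and 0.0658). The ratio of Il4ra to Il2rg was 1.27 in both TAN libraries, 1.25 and 1.26 with TAMo, and 1.37 and 1.27 with vehicle, so both chains moved by nearly the same factor. The ratio of Il21r to Il2rg was 1.11 and 1.05 with TAN, 2.08 and 2.19 with TAMo, and 0.979 and 0.984 with vehicle. For Il7r it was 0.528 and 0.507 with TAN, 0.139 and 0.153 with TAMo, and 0.377 and 0.365 with vehicle: Il7r rose with TAMo while its ratio to the shared chain was lower in both TAMo libraries than in the other 4.

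The other receptors were set against Il2rb, Il6st and Il10rb. Il2rb, the beta chain gene, had a mean of 242 FPKM with TAN, 249.9 FPKM with TAMo and 221 FPKM with vehicle, and the ratio of Il15ra to it was 0.117 and 0.118 with TAN, 0.106 and 0.108 with TAMo, and 0.186 and 0.175 with vehicle. The ratio of Il27ra to Il6st was 1.23 and 1.21 with TAN, 0.514 and 0.450 with TAMo, and 1.47 and 1.35 with vehicle, and that of Il6ra to Il6st was 0.0820 and 0.0979 with TAN, 0.0395 and 0.0508 with TAMo, and 0.106 and 0.0975 with vehicle. Both of these ratios were lowest in the TAMo libraries, where Il6st was high. The ratio of Il10ra to Il10rb ranged from 5.86 to 6.54 with TAN, from 5.38 to 6.52 with TAMo and from 5.02 to 5.32 with vehicle.

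**Figure D4:**
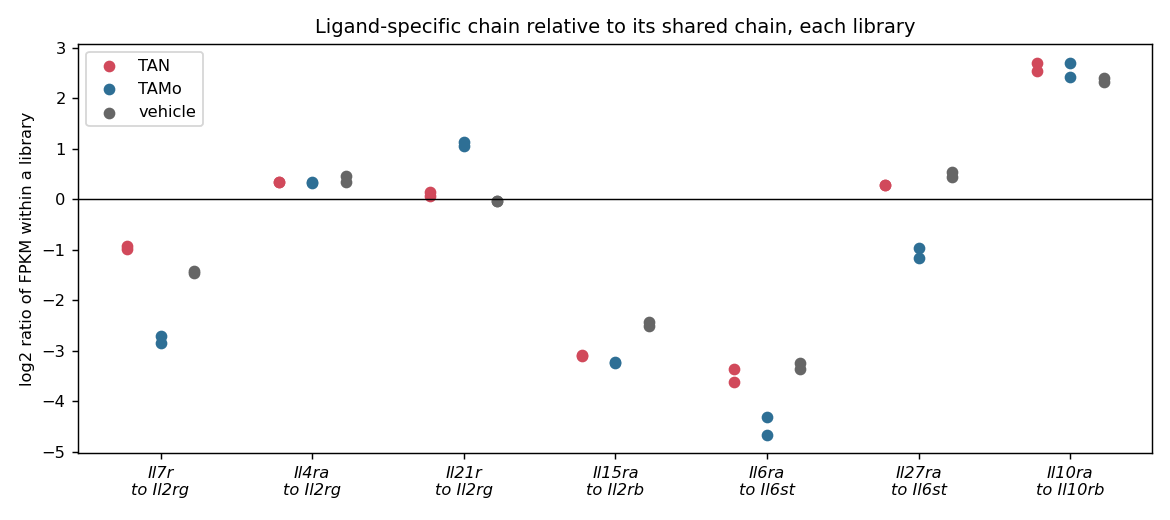
Log2 ratio of FPKM of each ligand-specific chain to its shared chain (vertical axis) in each library, with points coloured by TAN, TAMo and vehicle group. The Il4ra to Il2rg ratio stays between 0.32 and 0.46 in all 6 libraries, and the Il21r to Il2rg ratio averages 1.09 with TAMo, against -0.027 with vehicle.

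The other genes of these pathways were followed through 7 lists with 75 genes, of which 62 were tested. With TAN, 24 of the 62 passed, 12 in each direction (38.7%, against 20.3% of all genes). With TAMo, 57 passed, 47 higher and 10 lower (91.9%, against 86.5% of all genes). For TAN against TAMo 55 passed, 10 higher and 45 lower (88.7%, against 86.6%). By direction, 9.37% of all genes passed as higher and 11.0% as lower with TAN, and 45.7% and 40.7% with TAMo. For TAN against TAMo these shares were 40.6% and 46.0%. The TAN count fell to 11 without TAN replicate 1, 8 without TAN replicate 2, 10 without vehicle replicate 1 and 9 without vehicle replicate 2.

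Of 14 ligand genes, 7 reached the filter in the cells themselves. Of the others, Tslp was listed at 0 in every library, and Il7, Il15, Il4, Il11, Il10 and Il27 did not reach it. Il21, the ligand gene of the most raised receptor, had 1.53 and 2.14 FPKM with TAN, 8.29 and 8.59 FPKM with TAMo, and 0.930 and 0.736 FPKM with vehicle. Both TAMo libraries were far above the others. It was 10.1-fold as high with TAMo as with vehicle (log2 change 2.37 ± 0.116, adjusted p = 6.30e-07) and 2.21-fold as high with TAN (0.62 ± 0.116, adjusted p = 0.0122), and the call with TAN was lost without TAN replicate 2 or vehicle replicate 2 (adjusted p = 0.0598 and 0.0778). With TAMo 5 of the 7 ligand genes rose and 2 fell (median 0.89, against 0.057 over all genes). Among them, Il6 reached 1 FPKM in the TAMo libraries alone, where it was highest, and without it 4 of 6 rose and 2 fell (median 0.54). Lif, a ligand of gp130, rose to 126 FPKM with TAMo against 53.5 FPKM with vehicle (adjusted p = 1.34e-08), and Ebi3, a subunit of interleukin-27, fell to 1.59 against 4.78 FPKM (adjusted p = 1.16e-05). With TAN 3 rose and 2 fell (median -0.0071, against -0.0050 over all genes), or 2 and 2 of 6 without Il6. Il13 had 6.23 FPKM with TAN and 3.23 FPKM with vehicle (adjusted p = 0.00187), and 7.04 and 6.63 FPKM in the TAMo libraries. Il6, at 0.638 FPKM with TAN against 0.261 FPKM with vehicle, lost its call without any 1 of the TAN and vehicle libraries.

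Of 9 partner chains 5 were tested. With TAMo, 3 rose, 1 fell and 1 did not pass (median 0.17, against 0.057). Il2rg led, Crlf2, the thymic stromal lymphopoietin chain that pairs with the Il7r product, rose by 0.38 ± 0.073 (adjusted p = 0.00169), and Il11ra1, a chain for interleukin-11, fell by 0.49 (adjusted p = 0.00236). With TAN 1 rose and 3 fell (median -0.22, against -0.0050). Il2rb rose by 0.13 ± 0.0235 (limma adjusted p = 0.012), a call lost without any 1 of the TAN and vehicle libraries. Il10rb, the partner of Il10ra, fell by 0.29 (adjusted p = 0.0335) and Crlf2 by 0.29 (adjusted p = 0.0341). Without TAN replicate 2, vehicle replicate 1 or vehicle replicate 2 neither of these calls held, and that of Il10rb was also lost without TAN replicate 1 (adjusted p between 0.087 and 0.169). Lifr, Osmr and Cntfr, chains of other gp130 receptors, and Il13ra1 did not reach the filter, and Cntfr was at 0 in every library.

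The kinases and STAT factors were all tested. Of 11, 10 rose with TAMo and only Stat2 did not pass (median 0.80, against 0.057 over all genes). Jak2, a kinase associated with gp130 among other receptors, had 17.1 and 17.0 FPKM with TAN, 69.9 and 70.8 FPKM with TAMo, and 17.85 and 17.7 FPKM with vehicle. It rose by 1.93 ± 0.0348 with TAMo (adjusted p = 4.09e-09). Jak1, the kinase that all of these receptors use, had a mean of 208 FPKM with TAMo against 82.8 FPKM with vehicle (adjusted p = 9.48e-09). Stat3, the main factor of interleukins 6, 10 and 21, had means of 162 FPKM with TAN, 325 FPKM with TAMo and 164 FPKM with vehicle, and Stat6, the factor of interleukin-4, had 96.7, 208 and 99.7 FPKM. With TAN 1 rose, 3 fell and 7 did not pass (median -0.058, against -0.0050). Stat5b, a factor of the common gamma chain cytokines, rose by 0.28 ± 0.0449 (adjusted p = 0.00696, 0.0551 without TAN replicate 2). Stat2 fell by 0.23 (adjusted p = 0.00774), a call that was lost without TAN replicate 2 or vehicle replicate 1 (adjusted p = 0.0604 and 0.0591).

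**Figure D5:**
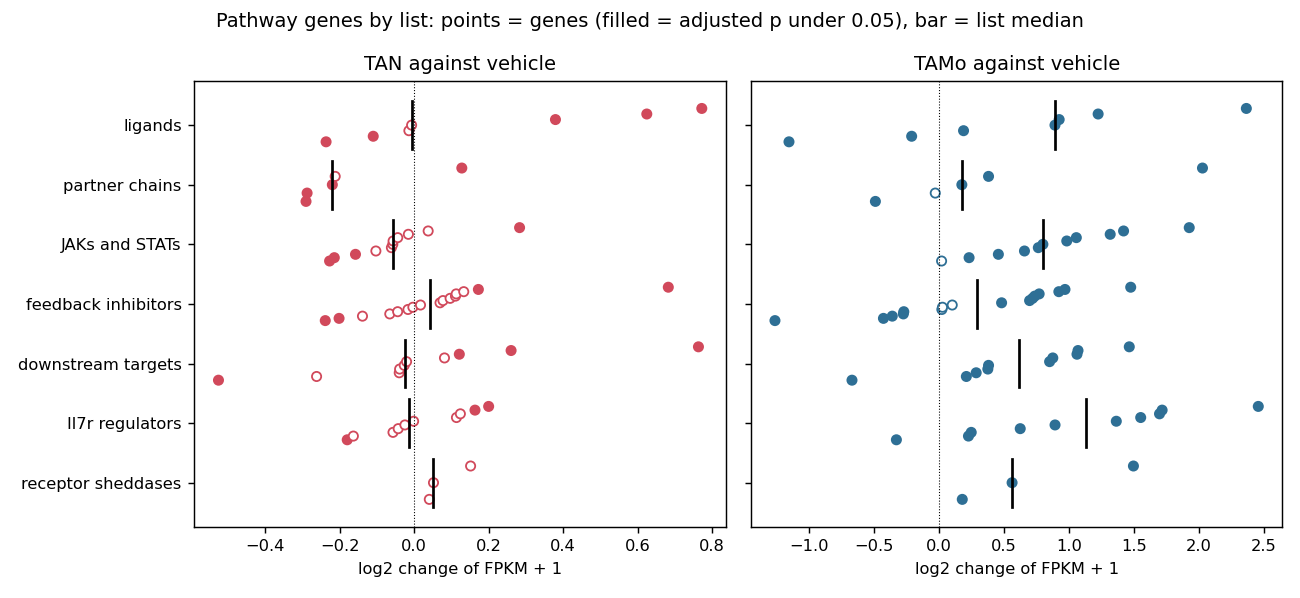
Log2 change of FPKM + 1 (horizontal axes, which differ between the panels) of each tested pathway gene, by list, for TAN and for TAMo against vehicle, filled where the adjusted p is under 0.05 and with a black bar at the list median. With TAMo 10 of 11 JAK and STAT genes rose, and with TAN the list medians lie between -0.22 and 0.052.

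Of 16 feedback inhibitors, 8 rose, 5 fell and 3 did not pass with TAMo (median 0.29, against 0.057). Socs5 rose 3.41-fold, and Pias3, an inhibitor of STAT3, 2.16-fold (adjusted p = 1.78e-06 and 9.51e-06). Socs2, a suppressor of cytokine signalling, moved in opposite directions: it had a mean of 26.9 FPKM with TAN, 6.23 FPKM with TAMo and 16.4 FPKM with vehicle, and passed in all 3 comparisons (adjusted p = 0.00044 for TAN and 1.63e-07 for TAMo against vehicle, 1.85e-08 for TAN against TAMo). With TAN, 2 rose, 2 fell and 12 did not pass (median 0.043, against -0.0050). Cish, a target of STAT5, fell by 0.24 (adjusted p = 0.00411). Sh2b3 fell by 0.20 (adjusted p = 0.0302), a call lost without any 1 of the TAN and vehicle libraries (adjusted p between 0.0589 and 0.155).

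Among 10 tested downstream targets, 9 rose and 1 fell with TAMo (median 0.61, against 0.057). Mcl1, a survival factor of the BCL2 family, had 425 against 153.5 FPKM (adjusted p = 4.78e-09), Irf1 174 against 82.6 FPKM and Junb 589 against 282 FPKM. With TAN 3 rose and 1 fell (median -0.024, against -0.0050). Prdm1, which encodes the effector factor Blimp-1, rose 1.97-fold (adjusted p = 0.00105), and Irf1 fell to 57.1 against 82.6 FPKM (adjusted p = 0.000266). Bcl3 rose by 0.26 (adjusted p = 0.0222), a call lost without TAN replicate 1, TAN replicate 2 or vehicle replicate 2. Prdm1 had 3.76 and 3.45 FPKM with TAMo, against 2.59 and 2.51 FPKM with vehicle. Bcl3 had 26.3 and 27.4 FPKM with TAMo, against 22.9 and 20.9 FPKM with vehicle.

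The last lists concern Il7r itself and the release of receptors from the cell surface. Of 10 genes of factors known to bind or control Il7r, 9 rose and 1 fell with TAMo (median 1.13, against 0.057). Foxo3 had 25.5 and 23.1 FPKM with TAN, 139 and 137 FPKM with TAMo, and 24.1 and 24.55 FPKM with vehicle. Foxo1, an activator of Il7r, rose 3.44-fold with TAMo (adjusted p = 7.30e-08) and Foxp1, which opposes it there, 3.32-fold (adjusted p = 2.22e-09). With TAN 2 rose and 1 fell (median -0.013, against -0.0050). Foxo1 rose by 0.20 (adjusted p = 0.0462), Gfi1, a repressor of Il7r, fell by 0.18 (adjusted p = 0.0202), and Ets1 rose by 0.16 (adjusted p = 0.00843). Without TAN replicate 2 the Gfi1 and Ets1 calls were lost, without TAN replicate 1 those of Foxo1 and Gfi1, without vehicle replicate 1 all 3, without vehicle replicate 2 those of Foxo1 and Ets1, and without either TAMo replicate that of Foxo1 (adjusted p between 0.0532 and 0.2). All 3 genes of receptor shedding rose with TAMo (median 0.56, against 0.057). Rhbdf2, a partner of the protease ADAM17 that cleaves the interleukin-6 receptor, rose 3.13-fold (adjusted p = 1.36e-07), Adam17 by 0.56 and Adam10 by 0.18. With TAN none of the 3 passed limma's test, and 1 had an unadjusted p under 0.05.

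Between the co-cultures, most pathway genes that passed were lower with TAN. TAN was lower than TAMo for 10 of 11 JAK and STAT genes, 9 of 10 factors of Il7r, 7 of 10 downstream targets, 4 of 7 ligands (3 of 6 without Il6), 3 of 5 partner chains, 9 of 16 feedback inhibitors and 3 of 3 shedding genes. Medians were -0.90, -0.99, -0.72, -0.19, -0.26, -0.27 and -0.51, against -0.065 over all genes. Of all genes tested, 46.0% passed as lower with TAN than with TAMo. The counts of ligands, partner chains and feedback inhibitors were not far above that share. The genes that passed as higher with TAN than with TAMo included Socs2, at 4.32-fold, and Ebi3, at 2.97-fold. The call of Il11ra1 (0.28, adjusted p = 0.0318) was lost without any 1 library other than TAMo replicate 2 (adjusted p between 0.0515 and 0.175).

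For each receptor the genes with the closest profile over the 6 libraries were found by the Euclidean distance between log2(FPKM + 1) values centred on each gene's mean, among the 10727 genes tested. They were Mdm2, Txk and Susd6 for Il21r, Cd6, Sidt2 and Klf3 for Il4ra, and Hmbox1 and Tmem68 for Il6st. Those of Il7r were Mctp2, Zdhhc20 and R3hdm1, and those of Il15ra were Irf8, Ptger2 and Pacsin1. For Il27ra they were Rnf123, H2-Ab1 and Rce1, for Il10ra Rbbp5, Gtf2h3 and Ap2m1, and for Il6ra Med10, Tmem175 and Rtl8a. The nearest distance was 0.0225, for Il6st and Hmbox1, while no gene came closer than 0.145 to Il15ra.

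Several receptors are also made by myeloid cells, so markers of other cells were read beside them. The 11 T cell markers in the table were high in every library and summed to between 2578 and 2587 FPKM with TAN, 2751 and 2792 FPKM with TAMo, and 2651 and 2663 FPKM with vehicle. All 12 neutrophil markers stayed under 1 FPKM, with S100a8, S100a9, Cxcr2, Ngp, Retnlg and Mmp8 at 0 in all 6 libraries, and they summed to at most 0.140 FPKM with TAN, 0.584 FPKM with TAMo and 0.0492 FPKM with vehicle. The 12 monocyte and macrophage markers summed to between 26.2 and 27.2 FPKM with TAN, 13.25 and 14.6 FPKM with TAMo, and 32.65 and 34.3 FPKM with vehicle. Ly6c2, which CD8+ T cells also express, made up most of this with TAN and vehicle. Without it the order turned round, with sums of 4.11 and 3.83 FPKM with TAN, 8.87 and 11.0 FPKM with TAMo, and 3.35 and 3.96 FPKM with vehicle. Ms4a6c had a mean of 5.58 FPKM with TAMo against 2.50 FPKM with vehicle (limma adjusted p = 0.000133), and Ccr2, under the filter, 0.327 against 0.0887 FPKM. Lyz2 reached at most 0.182 FPKM and Csf1r 0.0361 FPKM in any library, whereas Cd14 had 2.845 and 3.175 FPKM with TAMo and at most 0.0852 FPKM elsewhere. Dendritic and B cell markers, 10 in all, summed to between 41.15 and 42.7 FPKM with TAN, 37.5 and 39.4 FPKM with TAMo, and 47.5 and 48.2 FPKM with vehicle, and led with H2-Ab1. The 4 markers of NK and CD4+ T cells stayed under 1 FPKM. The part of these cells in the receptor values was not tested.

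Depth was alike apart from a doubt about TAMo replicate 1, but the TAMo libraries stood apart in other measures. Their FPKM summed to 546300 and 548000 over all genes, against 628300 to 630700 in the TAN and vehicle libraries. The steps between low values corresponded to 41.7 to 45.3 M (mega) counted reads per library. In TAMo replicate 1, 98.3% of the low read numbers were even, against 60.1% to 63.5% elsewhere, so its total may be 21.9 M. The share of mitochondrial transcripts in all FPKM was 8.07% and 8.21% with TAN, 1.20% and 1.32% with TAMo, and 8.15% and 8.34% with vehicle. It moved with every TAMo difference above. With these transcripts left out of the scaling, Il21r, Il4ra, Il6st, Il7r, Il15ra and Il10ra kept their calls for TAMo against vehicle, and Il27ra lost its call. That covers scaling alone, and any other part of this share in the differences was not tested. In bulk RNA, more cells with a transcript and more transcript per cell cannot be told apart.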

How the data were processed

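RNA-seq of OT-I CD8+ T cells was used, with 2 libraries for each of TAN, TAMo and vehicle, grouped by the labels. The authors deposited 1 table of FPKM, a column for each library. The tools named per the submitters' processing notes are featureCounts 1.5.0-p3, HISAT2 2.0.5 and CASAVA, and the build is mm10; what each did, the annotation, strand setting and gene lengths were not given in the sources used here. A change in abundant transcripts moves the FPKM of all other genes.

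Of 25638 genes, the 10727 that reached 1 FPKM in 2 or more libraries were tested on log2(FPKM + 1) with limma 3.58.1 in R 4.3.3 (mean-variance trend, all 6 libraries, 3 residual and 4.07 prior degrees of freedom). After ± stands the SE of a log2 change. Coordinates are from GENCODE mouse release 21 on GRCm38, the assembly of mm10, matched by symbol for all 8 receptors. Depth came from the steps of low values in 7708 genes with 1 annotated transcript, where 98.8% to 99.0% of values up to 40 reads were whole within 0.1. Replicates differed beyond counting noise (chi-square per degree of freedom of 2.03 for TAN, 10.3 for TAMo and 2.46 for vehicle), and each counted as 1 sample. The median gene stood at 1.52, 1.46 and 1.64 of counting noise. Both measures took 2 counted reads as 1 count in every library. At such halved totals 98.2% of the low values of TAMo replicate 1 were whole, against 59.1% to 66.8% in the other libraries. The measures therefore cannot tell if the TAMo libraries were noisier than the others. The TAMo values assume 43.8 M counted reads in TAMo replicate 1, which is uncertain.

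The fit was run on simulated data in which some genes changed in TAN alone. That setting is milder than these data, so it checks the code and not the error rates here. The receptors and lists were chosen with earlier results of these data known. All receptors, the 3 called genes of each list with the largest log2 changes per comparison, partner chains, JAKs and STATs could be named; other names were chosen after their values were seen, and some genes that the rule names are not reported here. Alternatives covered pseudocount, filter, scaling, variance trend, groups fitted, replicate block and each library left out.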

Additional observations from a re-analysis of the deposited data

How the results depend on the processing

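Under the 16 alternatives, Il21r, Il4ra and Il6st kept their direction and call for TAMo against vehicle (log2 changes of 3.06 to 3.24, 1.88 to 2.06 and 1.17 to 1.35), as did Il7r (0.59 to 0.77) and Il15ra (-0.65 to -0.47). For TAN against vehicle Il15ra (-0.51 to -0.45) and Il4ra (-0.30 to -0.24) did so too. Under the filter of a mean of 5 FPKM or more Il6ra was left out. The genes called for TAN against vehicle, 2180, were 1331 with no filter on low values and 725 to 2574 with a library left out, and the pathway genes called, 24, were 12 with no filter, 16 with no variance trend and 8 to 24 with a library left out. With no filter the TAN calls of Bcl3, Crlf2, Foxo1, Gfi1, Il10rb, Il21, Il6, Sh2b3 and Stat4 were lost, and with no variance trend those of Crlf2, Foxo1, Gfi1, Il2rb and Stat4. Leaving out Il6, which met the filter through the TAMo libraries alone, an alternative chosen after seeing the data, gave 23 pathway genes for TAN and 56 for TAMo against vehicle and 54 for TAN against TAMo. With a library left out, 2 to 4 receptor genes passed for TAN and 5 to 7 for TAMo against vehicle, and 5 to 6 for TAN against TAMo, where a group of 1 library is assumed to vary like the others. With a library left out, 8819 to 9189 genes passed for TAMo against vehicle and 8827 to 9238 for TAN against TAMo.

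Some values that had not passed changed sign. With mitochondrial transcripts left out of the scaling these were Il15ra (-0.0070) and Il27ra (-0.038) for TAN against TAMo, Stat5b (-0.041) in the same comparison and Il10rb (0.057) for TAMo against vehicle; with median-of-ratios size factors they were Il2rb for TAN against TAMo (0.044) and Stat2 for TAMo against vehicle (-0.066). Without TAMo replicate 2, Il27ra was -0.049 for TAN against TAMo, and for TAMo against vehicle Il6ra was -0.017 and Il10rb 0.051 (without TAMo replicate 1 they were 0.18 and -0.11). With a library left out, Il6st was -0.012 to 0.074 and Stat6 -0.094 to 0.0051 for TAN against vehicle, and Stat2 was -0.012 to 0.048 for TAMo against vehicle. The cause was not tested. The median of all genes for TAMo against vehicle was -0.021 to 0.15 under these scalings.

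Same-numbered libraries deviated together only weakly (correlations of 0.0078 to 0.057 over 10727 genes), so the numbers were not taken as pairs. With the replicate block 2140, 9282 and 9300 genes passed for TAN and TAMo, each against vehicle, and for the direct contrast of TAN with TAMo, with 3, 7 and 5 receptor genes and 26, 56 and 55 pathway genes; under it Il6 for TAN against vehicle missed the threshold (adjusted p = 0.0555) and Jak3 passed (adjusted p = 0.0352).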

Other observations

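The neighbourhood of Il4ra and Il21r on chromosome 7 was read after their values were seen. Of the 3 nearest tested genes on each side, Gtf3c1, a subunit gene of the RNA polymerase III factor TFIIIC that follows Il21r on the opposite strand (125640954 to 125707780), had 51.7 and 53.4 FPKM with TAN, 139 and 135 FPKM with TAMo, and 56.0 and 58.6 FPKM with vehicle. Its log2 change for TAMo against vehicle was 1.24 (limma adjusted p = 3.55e-08). The next genes on that side did not share it: D430042O09Rik was at 0.0997 and did not pass (adjusted p = 0.249), and Xpo6 fell by 0.35 (adjusted p = 4.09e-05). On the other side Nsmce1, Kdm8 and Lcmt1 fell with TAMo by 0.15, 0.24 and 0.28 (adjusted p = 0.0173, 0.011 and 0.00328). Il4ra, Il21r and Gtf3c1 thus follow each other among the genes tested, each with more transcript in both TAMo libraries than in the other 4. Of all genes tested, 45.7% passed as higher with TAMo than with vehicle, and 14.9% did so by at least 1 on the log2 scale. How often neighbouring genes rise together was not counted, and a link between the 3 genes was not tested.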
